A study of Mus musculus with 45 samples.

Results

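Kidneys of mice that ate a cholesterol-enriched diet with a mushroom extract were compared with kidneys of mice on the plain diet. Of the 45 arrays of the series, 6 were chosen by their labels for this comparison, 3 of kidney HCD+Gl-1 and 3 of kidney Control. The study asked how 2 extracts of the mushroom Ganoderma lucidum (Gl) and the drug simvastatin change gene expression in liver, kidney and brain of mice given cholesterol. All animals were male C57BL/6 mice that started at 7 weeks of age, with 8 mice in each group, and tissue was taken at day 43 after 8 h without food and water. Control mice ate the AIN-93 diet with no treatment. HCD+Gl-1 mice ate AIN-93 with 0.5% cholesterol and 1% of the lyophilized Gl-1 extract, a hydroalcoholic extract (32% by volume) of fruiting bodies grown on oak sawdust without acetylsalicylic acid. The 2 groups thus differ in both cholesterol and extract, and the effects of these cannot be told apart in their comparison. The groups used beside them were HCD (cholesterol alone), HCD+Gl-2 (cholesterol with the extract of fruiting bodies grown with acetylsalicylic acid), HCD+Sim (cholesterol with simvastatin), and liver and brain of the same diet groups.

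RNA was pooled before hybridization. Within each group 4 animals made up pool A and the remaining 4 pool B, and array C was hybridized with both pools mixed. The 3 arrays of a group are therefore not 3 separate samples. The p-values measure only the spread between arrays within groups, estimated over all 45 arrays of the 3 tissues. The allocation of mice was not blinded. Values are normalized array signals on the log2 scale, called levels here, on which a difference of 1 is a doubling. Pairs among the 6 arrays had correlations across genes of 0.996 to 0.997. The median SD of a gene over 3 arrays was 0.0778 in HCD+Gl-1 and 0.0859 in Control.

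The free-text descriptions of the kidney samples call them brain, whereas their titles and tissue fields call them kidney. The markers were those of kidney. The 12 proximal tubule genes had mean levels between 10.9 and 13.5 over the 6 arrays, with Kap and Slc34a1 (the main phosphate carrier of the tubule) at 13.5 and 13.4 in Control. The 7 brain genes, among them Snap25 and Mbp, had mean levels between 5.72 and 6.87, against a median of 6.86 over all genes. Markers of adrenal gland, which lies next to the kidney, lay between 3.75 and 6.36.

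The kidney takes up filtered solutes in the proximal tubule, makes and destroys the active form of vitamin D there, and regulates acid secretion in the intercalated cells of the collecting duct. It is not the main site of cholesterol synthesis, which in mammals is the liver, but its cells synthesize sterols, burn fatty acids and express receptors for hormones such as prolactin.

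Few kidney genes differed between HCD+Gl-1 and Control. Of 22080 genes, 2 were DE (absolute log2 fold change over 0.7 and adjusted p of at most 0.05 in limma), which is 0.00906% of those tested, and both were lower in HCD+Gl-1. They were Prlr, the prolactin receptor, and Polr3e, a subunit of RNA polymerase III. At the adjusted p alone 14 genes passed (0.0634%), 12 lower and 2 higher. The other 3 outside the dim genes below were Foxi1, a transcription factor of intercalated cells, which was lower, and Rnf24 and Gclc, which were higher. The last 9 were dim genes, 5 placed on chromosome Y and 4 without an entry in the RefSeq table used, all lower. With pools A and B only, 8 genes were DE. With 1 array left out the 2 became 0 without array A or B of either group. They became 4 without HCD+Gl-1 C and 6 without Control C. At an unadjusted p under 0.05 there were 729 genes (3.30%).

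**Figure D1:**
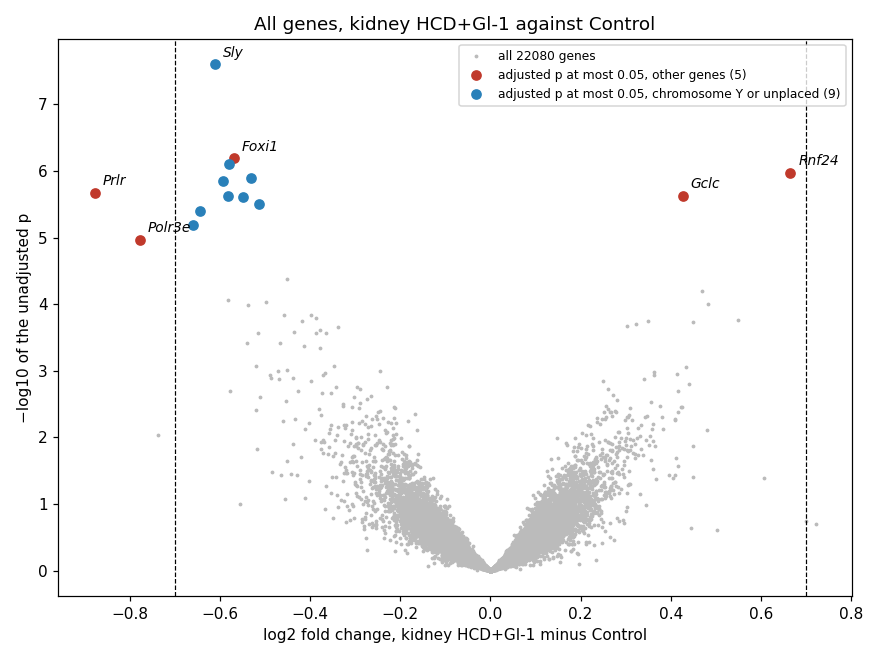
Log2 fold change (HCD+Gl-1 minus Control, horizontal axis) against the unadjusted p on a −log10 scale (vertical axis) for each of 22080 kidney genes. Red points are the 5 genes and blue points the 9 dim genes that passed the adjusted p, and dashed lines mark 0.7 in each direction, beyond which only Prlr and Polr3e passed.

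The difference of a typical gene was small. The median absolute log2 difference was 0.0569, the median difference 0.0055, and the median standard error of a difference 0.0995, so the 95% interval of a typical gene reached 0.202 to either side. The smallest difference that passed the adjusted p was 0.43, that of Gclc. In 1338 genes the 3 HCD+Gl-1 arrays lay above the 3 Control arrays (6.06% of all genes), and in 1288 they lay below (5.83%). With 3 arrays in each group, an exact permutation test of a single gene cannot give a two-sided p below 0.1, so calls rest on the spread shared over genes and groups.

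Prlr is the receptor through which prolactin activates the JAK2 kinase and STAT5. Its kidney levels in HCD+Gl-1 were 6.97 in pool A, 7.03 in pool B and 7.28 in pool C, and those in Control were 7.98, 7.93 and 8.00. The highest HCD+Gl-1 array lay well below the lowest Control array. The log2 difference was −0.88 ± 0.16 (SE, n = 3 and 3 arrays, limma adjusted p = 0.0054), a 1.84-fold lower level. Across the kidney groups the mean level was 7.09 in HCD+Gl-1, 7.34 in HCD+Gl-2, 7.80 in HCD, 7.97 in Control and 8.02 in HCD+Sim. HCD+Gl-1 was lower than HCD (log2 difference −0.71, limma adjusted p = 0.028) and lower than HCD+Sim (−0.93, limma adjusted p = 0.0022), while against HCD+Gl-2 the difference of −0.25 did not pass and its 95% interval ran from −0.57 to 0.07. HCD+Gl-2 was itself lower than the same Control arrays (−0.63, limma adjusted p = 0.038). The calls of HCD+Gl-1 against HCD and HCD+Sim use the same HCD+Gl-1 arrays as the call against Control and are not separate evidence.

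RefSeq lists 3 starts for Prlr, and 1 of the 3 windows of 250 bases before them holds the palindrome TTCNNNGAA, the form that STAT5 is known to bind and that reads alike on both strands. That window is shown because prolactin signals through STAT5. It lies at chr15:10223656-10223905 on the plus strand of GRCm38.p6, with the palindrome in capitals.
Prlr: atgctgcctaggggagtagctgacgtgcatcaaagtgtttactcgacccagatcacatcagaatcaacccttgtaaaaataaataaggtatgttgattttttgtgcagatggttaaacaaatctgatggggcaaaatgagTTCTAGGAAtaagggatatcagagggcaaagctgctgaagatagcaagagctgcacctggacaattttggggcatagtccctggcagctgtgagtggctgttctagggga
Of all 32851 RefSeq windows of this length 7.02% hold the palindrome, and nothing was measured on binding here.

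The other genes of prolactin and growth hormone signalling moved little. Of 23 listed genes 1 (Prlr) passed the test, 14 lay above 0 and 9 below, and their median log2 difference was 0.04 against 0.0055 over all genes. Jak2, the kinase bound to the receptor, differed by 0.04 and Stat5a by 0.04. Socs2, a feedback inhibitor induced by STAT5, had a difference of 0.26 and Ghr, the growth hormone receptor, of 0.09, both with non-overlapping arrays and neither passing. Cish, another STAT5-induced inhibitor, differed by 0.06.

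Polr3e encodes a subunit of RNA polymerase III, the enzyme that transcribes tRNA genes and other short RNAs. Its levels were 8.68, 8.65 and 8.91 in HCD+Gl-1 pools A, B and C and 9.58, 9.69 and 9.31 in Control. The arrays did not overlap, and pool C was the nearest to the other group on both sides. The log2 difference was −0.78 ± 0.15 (SE, n = 3 and 3 arrays, limma adjusted p = 0.017), or 1.71-fold lower. HCD without extract was at 8.85, 8.48 and 9.05, and HCD+Gl-1 minus HCD was −0.05 with a 95% interval from −0.36 to 0.26. HCD differed from Control by −0.73 (limma adjusted p = 0.026) and HCD+Sim by −0.63, which missed the threshold (adjusted p = 0.092), on the same 3 Control arrays. HCD+Gl-2 was between, at 9.26, 8.83 and 9.56.

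Its promoter is shown because a target of the polymerase lies inside it. The 250 bases before the start of Polr3e (chr7:120917528-120917777, plus strand, GRCm38.p6, RefSeq) begin with 71 of the 82 bases of n-TLaag4, a tRNA gene that ends 179 bases before the start, in capitals.
Polr3e: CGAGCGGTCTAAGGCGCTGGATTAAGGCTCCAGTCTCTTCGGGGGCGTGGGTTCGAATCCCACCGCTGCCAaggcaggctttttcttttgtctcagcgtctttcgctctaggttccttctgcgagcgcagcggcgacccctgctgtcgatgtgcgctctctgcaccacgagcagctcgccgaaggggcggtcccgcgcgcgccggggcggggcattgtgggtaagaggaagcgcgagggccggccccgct
The tRNA stretch holds GTTCNANNC, the B box that the polymerase III factor TFIIIC is known to bind, from base 51, a motif found on either strand in 7.85% of the 32851 windows. The array gave no value for the tRNA.

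The rest of the polymerase III machinery gave no such difference. Of 25 listed genes only Polr3e passed, 11 lay above 0 and 14 below, with a median of −0.01. Polr3a, the largest subunit, differed by 0.14, Polr3b by −0.01 and Maf1, the repressor of the enzyme, by 0.06.

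**Figure D2:**
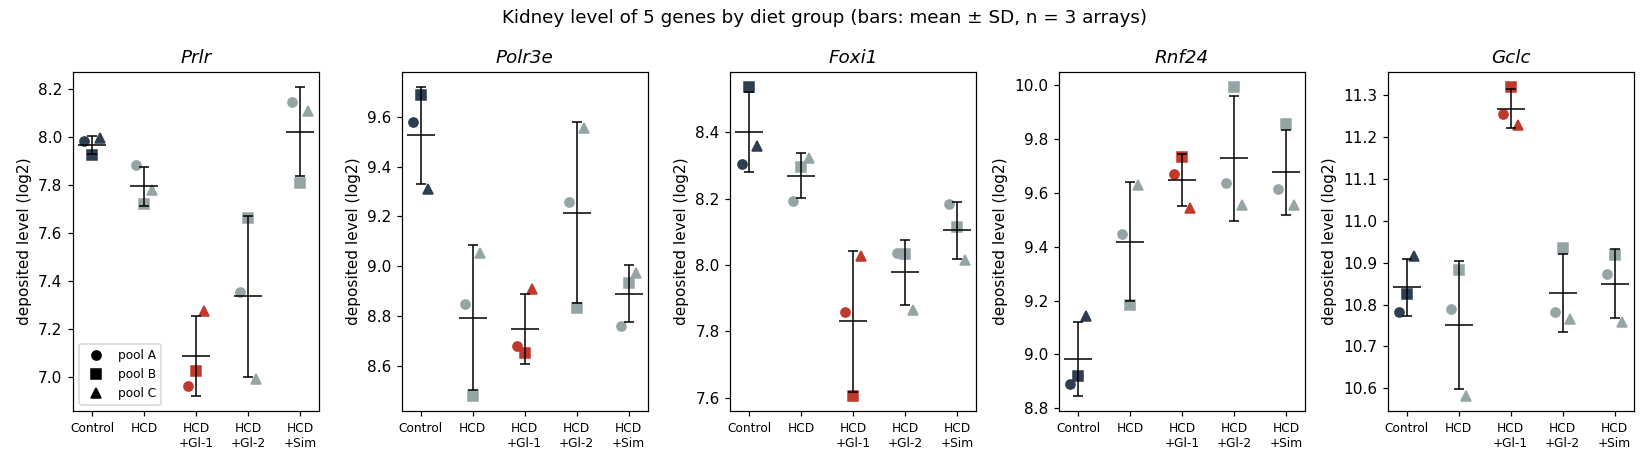
Deposited log2 levels (vertical axes, which do not start at 0) of 5 genes in the 5 kidney diet groups (horizontal axes). Each symbol is 1 array of pool A, B or C, and the line and bar are the mean ± SD of 3 arrays. HCD+Gl-1 (red) and Control (dark blue) do not overlap for any of the 5, and for Gclc the HCD+Gl-1 arrays lie above every other kidney array.

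Foxi1 is the transcription factor that intercalated cells need to make their proton pumps and anion exchangers. Its levels were 7.86, 7.61 and 8.03 in HCD+Gl-1 and 8.30, 8.54 and 8.36 in Control, without overlap. The log2 difference was −0.57 ± 0.10 (SE, n = 3 and 3 arrays, limma adjusted p = 0.0053), or 1.48-fold lower, short of the 0.7 needed to be DE. HCD+Gl-1 was also lower than HCD (−0.44, limma adjusted p = 0.023), whereas the differences from HCD+Gl-2 (−0.15) and HCD+Sim (−0.27) did not pass. HCD+Gl-2 was itself lower than the same Control arrays (−0.42, limma adjusted p = 0.016). The other 5 intercalated cell markers ranged from −0.12 (Atp6v1g3, a proton pump subunit) to 0.03 (Slc4a1, the basolateral anion exchanger), with Slc26a4, the apical exchanger, at 0.00 and Atp6v1b1 at −0.02, and none passed. In whole kidney RNA, fewer cells of a type and less RNA per cell cannot be told apart.

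Gclc encodes the catalytic subunit of glutamate-cysteine ligase, which limits glutathione synthesis and is a known target of the factor NRF2. Among the called genes it was the one by which HCD+Gl-1 differed from every other kidney group. Levels were 11.26, 11.32 and 11.23 in HCD+Gl-1 and 10.78, 10.83 and 10.92 in Control. The log2 difference was 0.43 ± 0.08 (SE, n = 3 and 3 arrays, limma adjusted p = 0.0054), or 1.34-fold higher. HCD+Gl-1 was higher than each of the other cholesterol groups as well, by 0.52 over HCD (limma adjusted p = 5.0e-05), 0.44 over HCD+Gl-2 (0.00078) and 0.42 over HCD+Sim (0.0075). HCD, HCD+Gl-2 and HCD+Sim differed from Control by −0.09, −0.01 and 0.01. In liver the HCD+Gl-1 minus Control difference was −0.08, and the kidney difference exceeded it by 0.50 ± 0.11 (SE, limma adjusted p = 0.025).

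Of 25 NRF2 and xenobiotic genes measured, Gclc alone passed, 19 lay above 0 and 6 below, and the median was 0.05. Gclm, the modifier subunit of the same ligase, had a difference of 0.10 with levels of 11.39, 11.43 and 11.45 against 11.29, 11.31 and 11.37, which did not overlap and did not pass. Nqo1, Hmox1 and Txnrd1, other well-known NRF2 targets, differed by −0.13, 0.03 and 0.01. Cyp1b1, a target of the aryl hydrocarbon receptor, had a difference of −0.30 that did not pass.

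Rnf24 encodes a membrane-bound ubiquitin ligase of the RING type. It was at 9.67, 9.73 and 9.54 in HCD+Gl-1 and at 8.89, 8.92 and 9.14 in Control, a log2 difference of 0.67 ± 0.11 (SE, n = 3 and 3 arrays, limma adjusted p = 0.0053) or 1.59-fold. HCD+Gl-1 did not differ measurably from the other cholesterol groups, with 0.23 against HCD (95% interval from −0.0016 to 0.46), −0.08 against HCD+Gl-2 and −0.03 against HCD+Sim. HCD+Gl-2 and HCD+Sim were higher than the same Control arrays by 0.74 and 0.69, both past the adjusted p, and the HCD difference of 0.44 did not pass.

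These 5 calls depended on single arrays, and array C, which holds RNA of both pools, stayed in when A or B was left out. Without array A or B of either group Prlr, Polr3e, Gclc and Rnf24 lost their calls at unchanged direction, with log2 differences from −0.97 to −0.82 for Prlr, −0.88 to −0.70 for Polr3e, 0.40 to 0.46 for Gclc and 0.62 to 0.74 for Rnf24 over all 6 arrays left out in turn. Foxi1 lost its call without array B of either group (−0.67 to −0.46). Of all 14 genes at the adjusted p, 3 or 1 still passed without HCD+Gl-1 A or B and 5 or 1 without Control A or B. A fit on the 15 kidney arrays ended the calls of Gclc (limma adjusted p = 0.056), Rnf24 (0.072) and Polr3e (0.14) and kept those of Prlr and Foxi1. A fit on the 6 arrays alone called only Prlr.

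**Figure D3:**
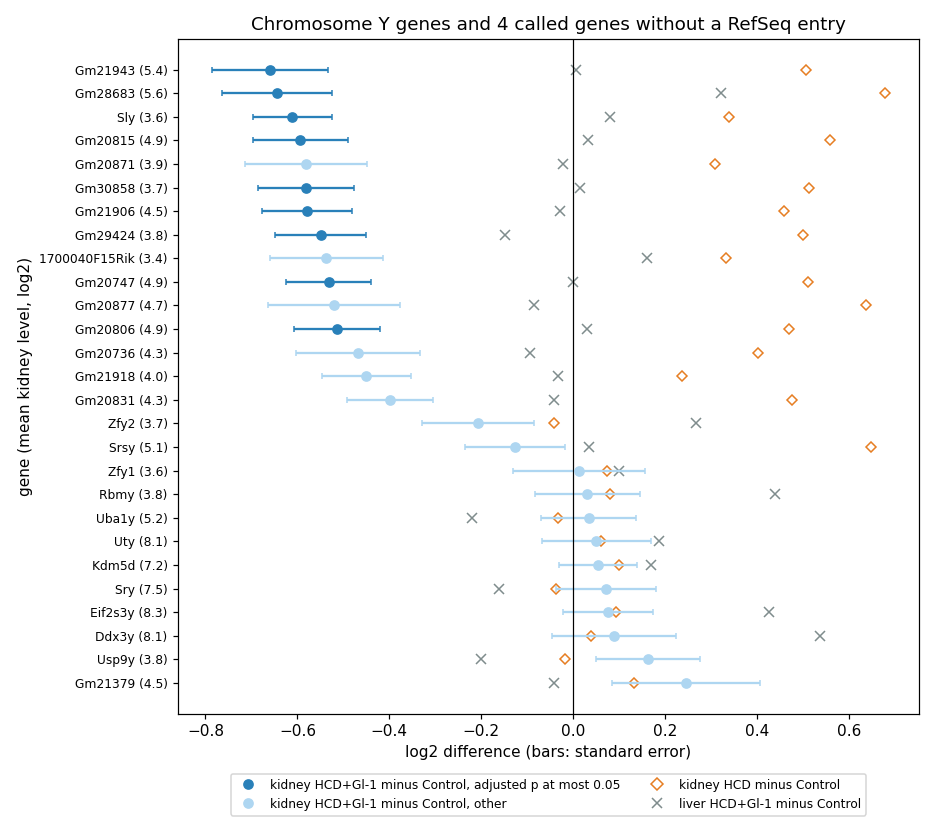
Log2 differences (horizontal axis) of 23 genes on chromosome Y and 4 called genes without a RefSeq entry (vertical axis, with the mean log2 level over the 6 kidney arrays). Circles with standard errors are kidney HCD+Gl-1 minus Control, diamonds kidney HCD minus Control and crosses liver HCD+Gl-1 minus Control. The brighter Y genes such as Uty and Ddx3y lie near 0, as do dim ones such as Zfy1 and Rbmy, and 9 dim genes are called lower.

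The 9 dim called genes were Sly, Gm20747, Gm20806, Gm20815 and Gm21943 on chromosome Y, and Gm21906, Gm28683, Gm29424 and Gm30858, which RefSeq did not place. The probe sets of these 4 fell in a range of probe set numbers that held 30 genes of the table, and all 23 of these with a RefSeq match lay on chromosome Y. Sly belongs to a multicopy family of the male chromosome that is known from developing sperm. The promoter windows below are shown because 3 of them are near copies of each other. Those of Gm20747 (chrY:53418308-53418557), Gm20815 (chrY:8835170-8835419) and Gm21943 (chrY:57533727-57533976), all on the minus strand of GRCm38.p6 from RefSeq, share an identical run of 111 bases, in capitals.
Gm20747: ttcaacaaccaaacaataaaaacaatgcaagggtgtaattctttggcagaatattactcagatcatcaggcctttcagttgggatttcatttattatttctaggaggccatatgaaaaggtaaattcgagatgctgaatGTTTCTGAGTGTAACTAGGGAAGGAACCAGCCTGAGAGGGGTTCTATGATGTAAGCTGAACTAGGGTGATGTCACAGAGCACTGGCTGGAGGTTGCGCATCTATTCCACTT
Gm20815: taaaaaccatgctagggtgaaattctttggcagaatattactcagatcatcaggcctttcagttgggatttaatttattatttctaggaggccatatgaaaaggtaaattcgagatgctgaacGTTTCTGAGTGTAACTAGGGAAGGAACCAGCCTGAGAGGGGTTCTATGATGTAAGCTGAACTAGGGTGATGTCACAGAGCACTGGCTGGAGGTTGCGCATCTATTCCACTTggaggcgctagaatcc
Gm21943: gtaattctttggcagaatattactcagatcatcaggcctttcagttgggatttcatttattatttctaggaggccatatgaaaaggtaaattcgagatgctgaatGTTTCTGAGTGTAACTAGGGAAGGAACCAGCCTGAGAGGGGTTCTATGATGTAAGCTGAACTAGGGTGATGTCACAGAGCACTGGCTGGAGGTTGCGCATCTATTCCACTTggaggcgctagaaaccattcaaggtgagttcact
Aligned on their longest shared runs, the pairs were identical at 97.9% to 100% of the overlapping bases, while the window of Gm20806 shared no run longer than 8 bases with any of them. These windows lie before the transcripts, and whether the probe sets of the 9 genes share signal was not tested, so the 9 calls are uncertain as separate values.

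Their levels were low. Sly was at 3.31, 3.21 and 3.22 in HCD+Gl-1 and 3.81, 3.98 and 3.79 in Control, with a log2 difference of −0.61 ± 0.09 (SE, n = 3 and 3 arrays, limma adjusted p = 0.00055). Its mean level exceeded that of 2.98% of genes, and the highest single value among the 9 was 6.19. Gm20815 was at 4.59, 4.62 and 4.62 against 5.26, 5.28 and 5.07. The 9 differences lay between −0.66 (Gm21943) and −0.51 (Gm20806). Of the 23 genes on chromosome Y, 13 lay below 0. In 11 of the 23 all 3 HCD+Gl-1 arrays lay below Control, against 5.83% of all genes. All 11 were among the 18 with mean levels under 6, and the 5 called genes on chromosome Y were among the 11. In the rest of these 18 the arrays overlapped, with differences from −0.21 (Zfy2) to 0.25 (Gm21379), so low level alone did not mark the lower genes. The 5 chromosome Y genes with a mean level over 6 (Uty, Kdm5d, Sry, Eif2s3y and Ddx3y, a cut chosen after their values were seen) had differences from 0.05 to 0.09.

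The 9 genes lay on both sides of Control in the other kidney groups. HCD+Gl-1 minus HCD ran from −1.32 to −0.95, and all 9 passed. HCD minus Control ran from 0.34 to 0.68, with 7 of 9 passing, and HCD+Gl-2 minus Control from −0.55 to −0.38, also with 7 passing. HCD+Sim minus Control ran from −0.51 to −0.26, with 1 passing. Between HCD+Gl-1 and HCD+Gl-2 the differences ran from −0.21 to −0.05 and between HCD+Gl-1 and HCD+Sim from −0.34 to −0.13, with none passing. In liver the HCD+Gl-1 minus Control differences ran from −0.15 to 0.32, and the kidney minus liver difference passed for Sly and Gm28683. In brain all 9 HCD+Gl-1 minus Control differences lay below 0, from −0.35 to −0.0034 with a median of −0.22, and none passed. The same directions were seen in Snord115 and Gm26230, which are dim in kidney and not among the chromosome Y genes. Their HCD minus Control differences were 1.01 and 0.88, and HCD+Gl-1 minus HCD was −1.44 and −1.42, all past the adjusted p. HCD+Gl-1 minus Control was −0.43 and −0.54 for them, neither passing. The comparisons with HCD+Gl-1 share its arrays, and those with Control share the Control arrays. All mice are labelled male. ComBat batches are not named in the sources used here, and the part of a batch in this pattern was not tested.

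**Figure D4:**
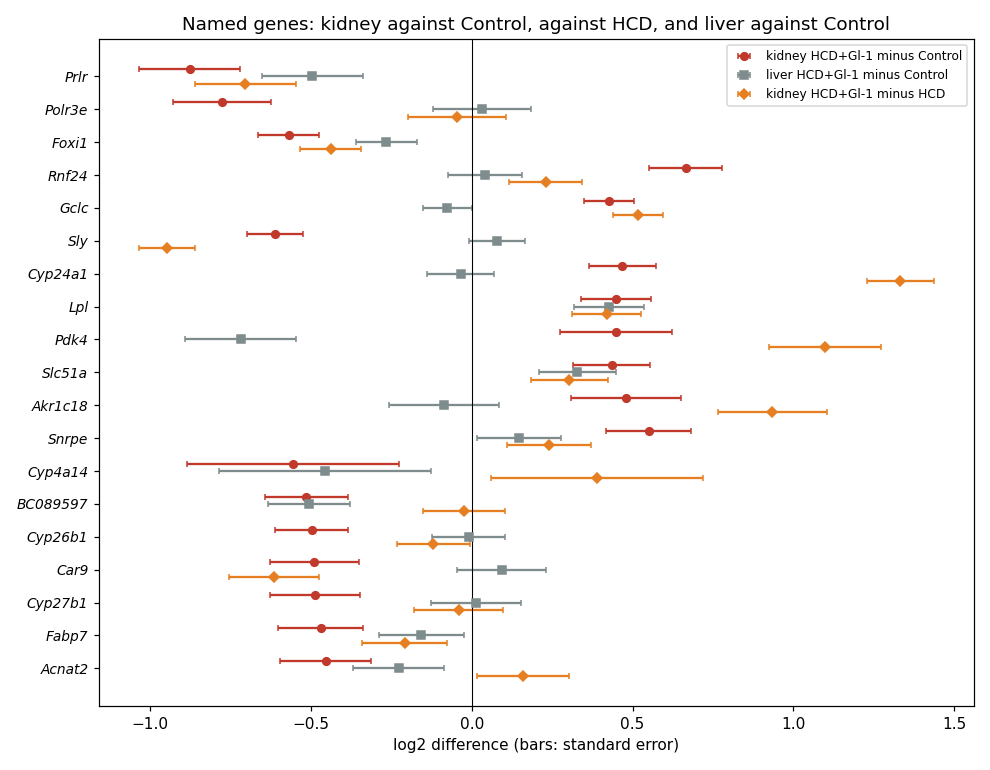
Log2 differences with standard errors (horizontal axis) of 19 named genes (vertical axis) in kidney HCD+Gl-1 minus Control (red circles), liver HCD+Gl-1 minus Control (grey squares) and kidney HCD+Gl-1 minus HCD (orange diamonds). Cyp24a1, Pdk4 and Akr1c18 lie further from 0 against HCD than against Control, and Polr3e, Rnf24 and Cyp27b1 nearer to 0.

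The next genes in size did not pass the adjusted p and are given as values of bright genes whose arrays did not overlap. An opposed pair among them belongs to vitamin D metabolism. Cyp24a1, the enzyme that inactivates vitamin D, was at 10.92, 11.05 and 11.09 in HCD+Gl-1 and 10.55, 10.63 and 10.48 in Control, a log2 difference of 0.47 (limma adjusted p = 0.087). Cyp27b1, which makes the active hormone, was at 7.08, 6.86 and 7.20 against 7.44, 7.73 and 7.43, a difference of −0.49 (limma adjusted p = 0.54). Against HCD the Cyp24a1 difference was 1.33 (limma adjusted p = 6.5e-11) and against HCD+Gl-2 it was 0.92 (1.7e-07), both past the threshold, while for Cyp27b1 the same differences were −0.04 and −0.06. The 2 genes were not opposed in those groups. HCD minus Control was −0.87 for Cyp24a1 and −0.45 for Cyp27b1, and HCD+Gl-2 minus Control was −0.45 and −0.42. Only the Cyp24a1 differences passed. None of the 25 vitamin D, calcium and phosphate genes passed against Control, 12 lay above 0 and 13 below, and the receptor Vdr differed by 0.02, the klotho gene Kl by 0.03 and Slc34a1 by −0.01.

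Cholesterol synthesis genes gave no called difference. Of 20 synthesis genes none passed, 6 lay above 0 and 14 below, and the median was −0.08. Mvk, an early enzyme, and Msmo1, Nsdhl and Hsd17b7, enzymes of the later steps, had all HCD+Gl-1 arrays below Control, with differences of −0.11, −0.37, −0.29 and −0.10. Insig1, which retains the sterol sensor SCAP in the endoplasmic reticulum, had a difference of −0.38. Among 12 export and LXR genes Abcg1, a cholesterol exporter, differed by 0.19 and Apoe by −0.17, neither passing. Scd1, which desaturates stearate, was at 10.44, 10.40 and 10.44 against 10.84, 10.70 and 10.83 (−0.36, limma adjusted p = 0.17), and of 20 fatty acid synthesis genes 13 lay below 0 and none passed.

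Pdk4, the kinase that shuts pyruvate out of mitochondria when fat is burned, was at 8.84, 8.76 and 9.25 against 8.47, 8.48 and 8.56, a difference of 0.45 that did not pass. Lpl, which releases fatty acids from circulating triglyceride, was at 11.84, 11.80 and 11.82 against 11.34, 11.35 and 11.43, also 0.45 (limma adjusted p = 0.15). Of 40 PPAR alpha targets and oxidation genes 30 lay above 0, 13 had all HCD+Gl-1 arrays above Control against 6.06% of all genes, and none passed, with a median of 0.06. Such shares were not particular to this list. Organic ion transporters had 5 of 20 above, and immediate early genes 7 of 29 below against 5.83% of all genes. Interferon-stimulated genes had 0 of 19 in either direction. Cpt2, Slc25a20, Ehhadh and Cd36, which import or oxidize fatty acids, had differences of 0.19, 0.18, 0.17 and 0.15. Cyp4a14, an omega-hydroxylase and a strong PPAR alpha target, had the opposite sign, at 9.11, 9.22 and 9.05 against 9.86, 9.77 and 9.43 (−0.56, SE 0.33). Acnat2, an acyl-CoA amino acid transferase, had a difference of −0.45.

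Akr1c18, which inactivates progesterone, had a difference of 0.48 from Control that did not pass and of 0.94 from HCD that did (limma adjusted p = 0.0021). Of 24 androgen-responsive and steroid genes 18 lay above 0 with a median of 0.09 and none passed. Cyp7b1 and Odc1, 2 genes that androgen raises in male mouse kidney, had differences of 0.30 and 0.26, while Kap, the most abundant of them, had 0.00. The other genes of this size were Snrpe, a core protein of the spliceosome (0.55), and Slc51a, a subunit of the organic solute transporter (0.43), on the higher side. On the lower side were BC089597 (−0.51), the retinoic acid hydroxylase Cyp26b1 (−0.50), the carbonic anhydrase Car9 (−0.49) and the fatty acid binding protein Fabp7 (−0.47). Car9 was lower than in HCD (−0.62, limma adjusted p = 0.033) and HCD+Sim (−0.66, limma adjusted p = 0.033), and the others of this group of 6 passed against no other cholesterol group.

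**Figure D5:**
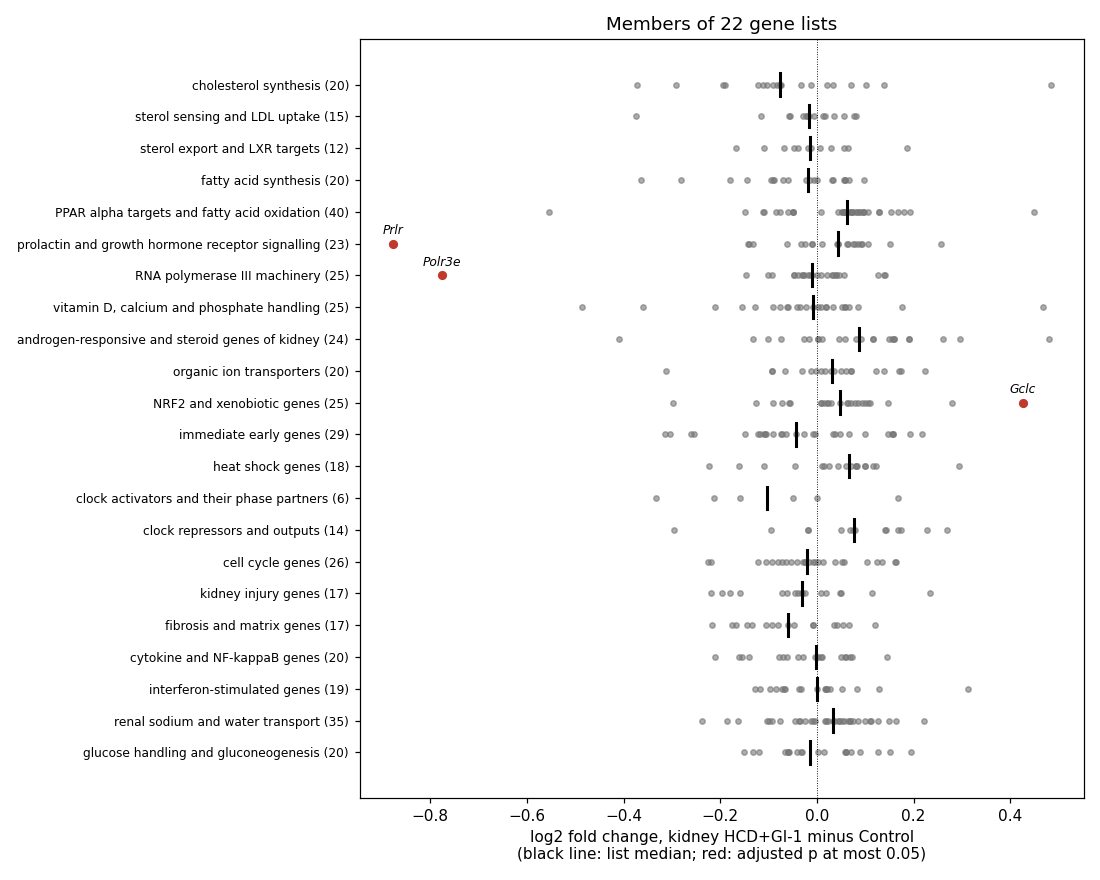
Log2 fold changes of the members of 22 gene lists (horizontal axis, HCD+Gl-1 minus Control, list size in brackets on the vertical axis). Grey points did not pass the adjusted p, red points did, and black lines are list medians, which lay between −0.10 and 0.09.

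No other list held a gene that passed. Kidney injury genes had 6 of 17 members above 0 and a median of −0.03, with Havcr1, the gene of the injury molecule KIM-1, at 0.11 and Lcn2 at 0.23. Fibrosis and matrix genes had 5 of 17 above 0 and a median of −0.06. Cytokine and NF-kappaB genes (9 of 20 above 0) and interferon-stimulated genes (9 of 19) had medians of 0.00. Sodium and water transport genes (21 of 35), organic ion transporters (13 of 20) and glucose genes (10 of 20) had medians of 0.03, 0.03 and −0.01. Cell cycle genes had 10 of 26 above 0, LDL uptake genes 6 of 15 and export genes 5 of 12, with medians of −0.02 in each.

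Immediate early genes, which respond within minutes to handling, had 11 of 29 above 0, and heat shock genes 14 of 18, with medians of −0.04 and 0.07. Clock activators and their partners had 1 of 6 above 0 (median −0.10), with Arntl at −0.21, and clock repressors and outputs 10 of 14 (median 0.08), with Per2 at 0.23 and Wee1 at 0.27. None of these passed. The hour of day at which each group was killed is not given in the sources used here, and its part in these values was not tested.

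The mean level of 3 of the 14 marker lists did not overlap between the groups, namely blood, loop of Henle and intercalated cells. Among single genes all 3 HCD+Gl-1 arrays lay above Control in 6.06% and below in 5.83%. Such a share was not obtained for list means. All 3 blood genes measured lay above 0, Hbb-bs at 0.24, Alas2 at 0.27 and Slc4a1 (shared with intercalated cells) at 0.03, and their mean level was 9.22 to 9.25 in HCD+Gl-1 and 9.0 to 9.09 in Control, although none passed. Podocyte genes were all below 0 (6 of 6, median −0.09) and loop of Henle genes all above (4 of 4, median 0.12), the latter with a mean level of 10.47 to 10.59 in HCD+Gl-1 and 10.39 to 10.46 in Control. The 6 intercalated cell genes, which include the already called Foxi1 (−0.57), had 1 above 0 (median −0.02). Their mean level was 8.69 to 8.77 against 8.81 to 8.91. Adipose genes had 1 of 8 above 0 (median −0.05), endothelial genes 1 of 6 (−0.08), distal convoluted tubule genes 1 of 4 (−0.02), principal cell genes 5 of 6 (0.07) and leukocyte genes 4 of 6 (0.04). Medians ran from −0.02 to 0.02 for proximal tubule (5 of 12 above 0), adrenal (5 of 10), skeletal muscle (4 of 8), liver (3 of 8) and brain markers (3 of 7). The part of cell composition in the differences above was not tested.

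The kidney and liver differences could be compared directly. The kidney minus liver difference passed the adjusted p in 55 genes (0.249%), of which 26 were DE, 13 in each direction (16 DE without HCD+Gl-1 A or C, 13 without Control C). Among the genes above it passed for Gclc, Sly, Gm28683, Pdk4 and Hbb-bs. For Prlr the liver difference was −0.50, from 9.18, 9.63 and 8.82 in Control to 8.74, 8.59 and 8.82 in HCD+Gl-1, and the kidney minus liver difference of −0.38 did not pass (95% interval from −0.83 to 0.07). For Polr3e (−0.81) and Rnf24 (0.62) the kidney minus liver difference missed the threshold, with limma adjusted p of 0.10 and 0.085. Lpl was higher in liver HCD+Gl-1 as well, by 0.43 (limma adjusted p = 0.018), and the 2 tissues differed by 0.02.

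Against the other cholesterol groups HCD+Gl-1 differed at the adjusted p in 59 kidney genes from HCD (0.267%), in 87 from HCD+Gl-2 (0.394%) and in 22 from HCD+Sim (0.0996%). Of the 5 called genes outside the dim group, Gclc passed against all 3, Prlr against HCD and HCD+Sim, Foxi1 against HCD, and Polr3e and Rnf24 against none.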

How the data were processed

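The log2 values deposited by the authors come from Affymetrix mouse gene ST v1.0 arrays (RMA background correction and quantile normalization with oligo, ComBat for a batch that is not named, annotation with mogene10sttranscriptcluster.db, and for each gene the probe set of highest interquartile range). No genome build is given in the sources used here. Quantile normalization fixes the distribution of each array, so a shift common to most genes cannot be seen. The number of arrays limits the precision.

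Groups and pools came from the sample titles. As in the study's methods, differences were tested with limma 3.58.1 in R 4.3.3, here with 1 fit of 15 group means to all 45 arrays (prior degrees of freedom 7.34, residual 30) and Benjamini-Hochberg adjustment over 22080 genes. Every p-value given for a gene was taken from it unless another fit is named. The procedure was tested on simulated data with independent arrays, unlike array C here, so the effect of the pooling was not tested. DE genes are those past both 0.7 in absolute log2 fold change and 0.05 in adjusted p. The kidney minus liver difference was a contrast of the same fit. Genes named are those DE, those at an adjusted p of at most 0.05, up to 8 in each direction of largest change among genes at or above the median level whose arrays did not overlap, and list genes, and not every gene the rule names is reported here. The chromosome Y genes, Snord115 and Gm26230 were added outside this rule. Members, the 22 pathway lists and the 14 marker lists were chosen with earlier results of these data known. Of the genes, 20199 matched RefSeq (GRCm38.p6) by symbol, and 17 of 28 named genes had a promoter window, cut to the 250 bases before the start with Python 3.11.15. The 13 genes with names turned into dates were tested but not named. Gsta1, Gsta2, Ugt1a1, Ccn2, Isg15, Adgre1, Hba-a1 and Hbb-b1 belong to the lists but were not analysed here. Samples with the same pool letter did not deviate together (correlations of −0.003, −0.049 and 0.139), so letters were not used to pair samples. Alternatives were other sets of arrays, each array left out, a replicate block, a filter on dim genes, renewed normalization, other variance moderation and no fold threshold.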

Additional observations from a re-analysis of the deposited data

Results flagged for a closer look

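The HCD+Gl-1 minus Control difference was tested between kidney and liver. Of the named and listed genes, 12 differed between the tissues (limma, adjusted p of at most 0.05 for the difference of the differences). Over all 22080 genes 55 did so (0.249%), and the lists held 543 measured genes. Of the 12, 3 passed in kidney and not in liver. Those 3 were named for their kidney calls on the same arrays, and Gclc is also on a list. Gm28683 differed by −0.97 (−0.64 in kidney, 0.32 in liver), Sly by −0.69 (−0.61 in kidney, 0.08 in liver) and Gclc by 0.50 (0.43 in kidney, −0.08 in liver). Pdk4 differed by 1.17, with a kidney difference of 0.45 that did not pass and a liver difference of −0.72 that did.

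In the other 8 the kidney difference lay between −0.08 and 0.24 and did not pass, while the liver difference did. Genes of cholesterol and fatty acid synthesis fell in liver, and the kidney minus liver difference was 1.04 for Acss2, 0.93 for Cyp51, 0.84 for Acacb, 0.68 for Pmvk and 0.60 for Tm7sf2. Usp2, a clock output gene, differed by −0.77 (−0.02 in kidney, 0.75 in liver). The beta-globin gene Hbb-bs differed by 0.76 (0.24 in kidney, −0.52 in liver), and the muscle gene Myh1 by 1.49 (0.16 in kidney, −1.32 in liver). No array outlier was looked for, since each group has 3 arrays.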

How the results depend on the processing

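The 2 DE genes of kidney HCD+Gl-1 against Control were 1 in a fit on the 15 kidney arrays, 1 in a fit on the 6 arrays, 8 with pools A and B only and 14 with no fold threshold. With pools A and B only, Rnf24, Snrpe, Gm20871, Gm21943, Gm28683 and Klk1b22 joined Prlr and Polr3e. With 1 array left out at a time the count ran from 0 to 6. It was 0 without array A or B of either group, 4 without HCD+Gl-1 C and 6 without Control C. The 14 genes at the adjusted p were 1 in the fit on 6 arrays, which has 4 residual degrees of freedom, and 5 after the filter on dim genes, which removes the 9 dim genes on chromosome Y or without a RefSeq entry. The fit on the 15 kidney arrays gave 19, of which 10 were among the 14, losing Gclc, Rnf24, Polr3e and Gm28683. With an array left out they ran from 1 to 19, 3 without HCD+Gl-1 A, 1 without HCD+Gl-1 B, 5 without Control A and 1 without Control B. With the pool letter as a replicate block, 2 genes were DE and 16 passed the adjusted p, including all 14. The 26 DE genes of the kidney minus liver difference were 88 with pools A and B only, 41 with the replicate block and 55 with no fold threshold, and 13 to 26 with an array left out (16 without HCD+Gl-1 A or C, 13 without Control C). The causes of the other changes were not tested. The counts of 29 genes against HCD, 40 against HCD+Gl-2 and 8 against HCD+Sim stayed between 27 and 42, 39 and 46, and 6 and 11 under the alternatives run for them. No direction of the 14 genes reversed in 201 refitted values, and 138 of these kept the call. A fit without the 3 kidney HCD arrays, added after seeing the data, kept all 14.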
